A study of Homo sapiens with 12 samples.

Results

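Histone gene RNA in A172 cells, a long-established line from a human glioblastoma, was followed across 12 RNA-seq libraries of cells given siRNAs against uc.110, an ultraconserved element of the genome, or a control siRNA. The members are the protein-coding rows of the deposited count table whose symbol is that of a numbered H1, H2AC, H2BC, H3C, H4C or H3 gene, of H2AX or of an H2AZ gene, so the choice used names and no measured value. The rule found 78 genes, each with 1 row, among 48769 gene rows. By symbol, 66 of them are replication-dependent genes (5 of H1, 16 of H2A, 17 of H2B, 14 of H3 and 14 of H4), 8 are variant or replication-independent genes, and 4 are genes known from testis or oocyte. There were 4 libraries with siRNA-2 against uc.110, 4 with siRNA-1 against uc.110 and 4 with the scrambled control siRNA. All groups were wild-type A172 cells in serum, transfected for 6 h with a lipid reagent, with RNA taken on day 2 after transfection, and differed by the labels only in the siRNA. Separate cultures within a group are not mentioned in the labels; p-values here cover only the differences among these libraries, and part of that spread may be technical.

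Histones are the proteins around which DNA is wound, and H1 binds the linker DNA between the wound cores. Replication-dependent histone genes lie in clusters on chromosomes 6 and 1 and are transcribed mainly while DNA is copied. Their usual mRNA has no intron and no poly(A) tail and ends shortly after a stem-loop that is bound by SLBP. Variant histone genes are transcribed outside replication too, mostly as ordinary polyadenylated mRNA, and their proteins replace the replication-dependent ones at particular places, such as H3.3 at active genes and H2A.Z at promoters. Whether these libraries were made from poly(A)-selected RNA is stated nowhere in the labels, so the levels below are levels of whatever histone RNA the libraries hold.

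The stem-loop is shown because it marks the replication-dependent class. A 16-base stem-loop, with arms of 6 bases of which at least 5 pair, was found in the annotated 3' end of 25 of the 29 replication-dependent members that GENCODE version 29 gives a 3' end of at least 40 bases. It was found in 1 of 8 variant members, H2AX, and in 1 of 4 testis or oocyte members, H3-4. The 6 versions found follow, each with members described below, with the arms in capitals and the loop in lower case. In the version of H2AC11, 5 of the 6 arm positions form Watson-Crick pairs.

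H2AC6, H2BC21, H3C10, H3C14 and H3C15: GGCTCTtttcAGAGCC

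H2BC4 and H2BC5: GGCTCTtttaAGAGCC

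H4C9, H4C14 and H4C15: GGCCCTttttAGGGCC

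H4C8: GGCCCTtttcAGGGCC

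H2AX: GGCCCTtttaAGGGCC

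H2AC11: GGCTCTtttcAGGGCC

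For 19 of these 25 genes an annotated mRNA runs on for more than 100 bases after the stem-loop, and for 9 replication-dependent members a spliced mRNA is annotated, so that annotation holds long forms of these mRNAs beside the short ones.

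The libraries held between 42774768 and 52942606 counts in the rows kept. RNA of the 45S ribosomal gene RNA45SN1 took 0.591% to 1.79% of counts in 10 libraries, 3.09% in siRNA-2 replicate 2 and 5.65% in siRNA-1 replicate 3. uc.110 itself, on chromosome 2 from 236162738 to 236162980 (hg38), had 3, 0, 4 and 0 reads with siRNA-2, 2, 0, 1 and 2 with siRNA-1, and 4, 0, 1 and 6 with scrambled, which is too few to check the labels. Of 9 glial and neural stem cell marker genes, 7 averaged at least 1 CPM (counts scaled to a common library size), among them NES, VIM, SOX9, SOX2 and CD44, while S100B never passed 0.0216 CPM and PTPRZ1 never passed 0.273 CPM. The summed level of these 9 was 3304 to 3407 CPM with siRNA-2, 2838 to 3063 CPM with siRNA-1 and 3809 to 4091 CPM with scrambled, without overlap. Summed levels of hematopoietic and endothelial markers were 161 to 178 CPM with siRNA-2, 176 to 193 CPM with siRNA-1 and 243 to 276 CPM with scrambled, nearly all of it from CSF1R; CD3E stayed at or under 0.0853 CPM. The corresponding sums were 43.0 to 52.8, 50.1 to 63.2 and 39.2 to 47.2 CPM for epithelial markers and 25.8 to 28.3, 24.5 to 27.7 and 30.4 to 33.4 CPM for neuron and oligodendrocyte markers. Their part in the histone results was not tested.

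Replication-dependent histone RNA was higher after both siRNAs, and more so after siRNA-2. The summed level of these genes, with copies and rows inside another member's row counted once, was 1110.0, 1001, 948 and 979 CPM in the siRNA-2 libraries, 701, 792, 825 and 709 CPM in the siRNA-1 libraries and 448, 386, 433 and 403 CPM in the scrambled libraries. No library of 1 group overlapped those of another in this sum. The siRNA-1 library with the largest ribosomal share, replicate 3, had the highest sum of its group, while replicate 2, with the smallest ribosomal share of all 12 libraries, had the next highest. In a bulk sample, more cells that make a given RNA and more of that RNA per cell cannot be told apart.

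Gene by gene, 31 of the 66 replication-dependent members rose with siRNA-2 and none fell, 22 were tested without passing, and 13 had too few reads to test. The test was edgeR's quasi-likelihood test over 24943 rows with Benjamini-Hochberg adjustment and a threshold of 0.05, and in the same comparison 56.1% of all rows were called, 29.9% higher and 26.1% lower. The 31 make 58.5% of the 53 tested members. The count of 0 lower members was also 0 at an unadjusted p under 0.05 and 0 with DESeq2. With siRNA-1, 26 rose and 1 fell, against a background of 53.4% of rows called, 28.6% higher and 24.8% lower, and the 26 make 49.1% of those tested. The median log2 fold change of the tested members was 0.91 with siRNA-2 and 0.61 with siRNA-1, against 0.01 over all rows in both comparisons. All 4 siRNA-2 libraries lay above all 4 scrambled libraries for 28 members, where the background was 26.7% of rows, and all 4 siRNA-1 libraries did so for 21 members, where it was 23.6%.

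The siRNA-2 and siRNA-1 comparisons share the scrambled libraries. Counts of members take each copy of a gene as a member unless stated otherwise. H2AC18 and H2AC19, H3C14 and H3C15, and H4C14 and H4C15 are pairs of copies with at least 2 CPM. H4C11 and H4C12, under 2 CPM, have identical coding sequences, and their counts differed by at most 6 reads in any library. Of the 21 members with a mean of at least 2 CPM, a split chosen with values known, 20 rose with siRNA-2 and 18 with siRNA-1. Of the 32 under 2 CPM, 11 rose with siRNA-2 and 8 with siRNA-1. That is near the share of all rows called higher, 29.9% with siRNA-2 and 28.6% with siRNA-1. The excess of higher calls thus lay mainly in the members of at least 2 CPM. The shares over all rows were not split by abundance. Median log2 fold changes with siRNA-2 and siRNA-1 were 1.28 and 0.78 in the members of at least 2 CPM. In those under 2 CPM they were 0.69 and 0.40, also above the 0.01 over all rows. Leaving out both libraries with a large ribosomal share gave 28 members higher with siRNA-2 and 20 with siRNA-1, and without scrambled replicate 1 the counts were 30 and 25.

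**Figure D1:**
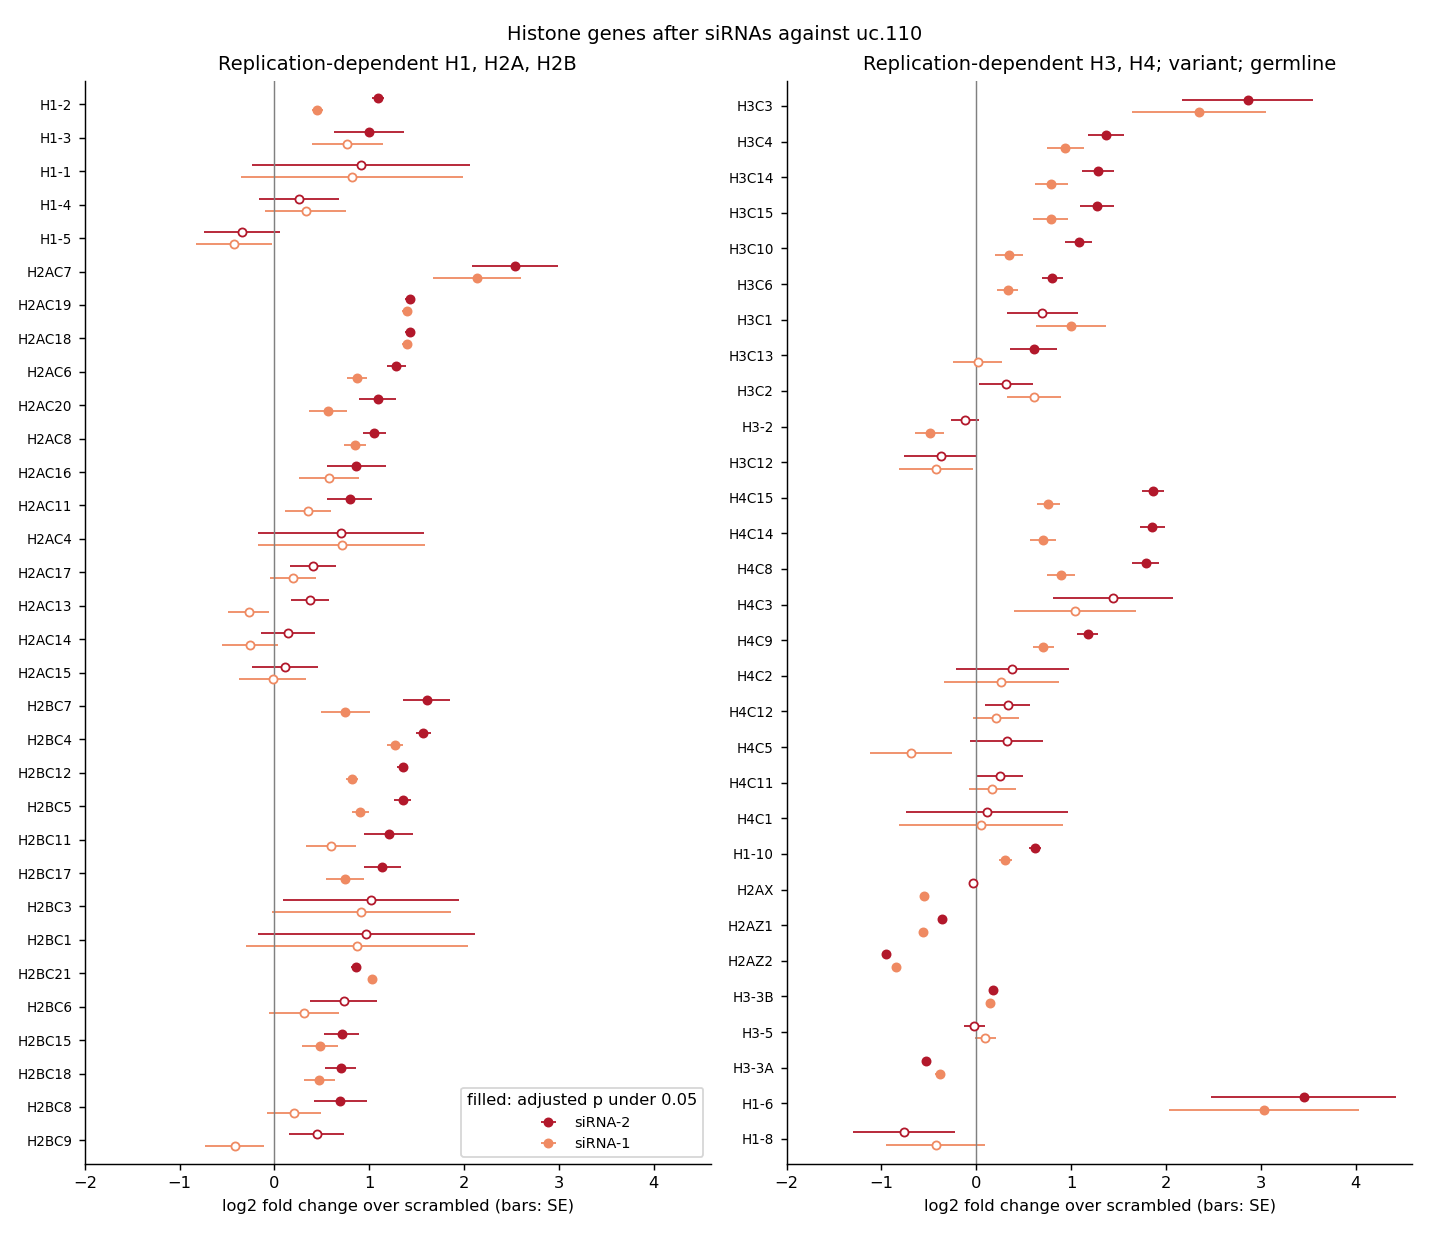
Log2 fold change over scrambled (x axis, bars are SE) of the tested histone genes reported here, siRNA-2 above siRNA-1 in each row, with filled points at adjusted p under 0.05. Most replication-dependent genes lie to the right of 0, with H4C14, H4C15 and H4C8 well further right with siRNA-2 than with siRNA-1, while H2AZ1, H2AZ2 and H3-3A lie to the left; H1-6, H3C3 and H4C3 share reads with each other.

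Among replication-dependent linker histone genes, H1-2 was by far the most abundant. It had 134, 132, 124 and 128 CPM in siRNA-2 libraries, 74.8, 88.8, 90.5 and 76.5 CPM in siRNA-1 libraries and 62.1, 56.0, 67.4 and 59.1 CPM in scrambled libraries, so the groups did not overlap. H1-2 rose by 1.09 on the log2 scale with siRNA-2 (SE 0.06, adjusted p = 7.96e-11) and by 0.45 with siRNA-1 (SE 0.06, adjusted p = 7.14e-06). H1-3 had only 0.291 to 0.472 CPM with siRNA-2, 0.184 to 0.489 CPM with siRNA-1 and 0.143 to 0.273 CPM with scrambled. Its siRNA-2 libraries lay just above the scrambled ones, and its increase of 1.00 with siRNA-2 (SE 0.37, adjusted p = 0.023) did not pass without scrambled replicate 3 (adjusted p = 0.07), scrambled replicate 4 (adjusted p = 0.0585) or siRNA-2 replicate 2 (adjusted p = 0.064). H1-4 had 0.465 to 1.15 CPM with siRNA-2, 0.286 to 1.74 CPM with siRNA-1 and 0.491 to 0.884 CPM with scrambled, groups that overlapped widely, and passed in no comparison. H1-1 and H1-5, the other replication-dependent linker genes, did not pass either.

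H2A genes were higher with both siRNAs, summing to 272 ± 19.7 CPM with siRNA-2, 240.1 ± 12.8 CPM with siRNA-1 and 111 ± 10.8 CPM with scrambled (SD, n = 4 each). This sum counts copies once and leaves out H2AC7, whose row lies inside that of H3C4. H2AC18 (hg38 chromosome 1, 149842218 to 149842750, minus strand) had 172.5, 156, 152 and 155 CPM with siRNA-2, 153, 148, 164 and 154 CPM with siRNA-1 and 65.0, 55.3, 61.9 and 56.2 CPM with scrambled. Its siRNA-2 and siRNA-1 libraries overlapped, and both groups lay well above scrambled. H2AC18 rose by 1.43 with siRNA-2 (SE 0.05, adjusted p = 3.82e-16) and by 1.40 with siRNA-1 (SE 0.05, adjusted p = 5.75e-16). H2AC19, a neighbouring copy whose counts differed from those of H2AC18 by at most 16 reads in any library, gave the same values and is not a separate measurement. H2AC6 had 103, 86.9, 84.2 and 82.8 CPM with siRNA-2, 59.8, 74.1, 70.5 and 61.2 CPM with siRNA-1 and 36.6, 32.0, 42.8 and 35.9 CPM with scrambled, with no overlap between groups. It rose by 1.28 with siRNA-2 (SE 0.10, adjusted p = 9.64e-07) and by 0.87 with siRNA-1 (SE 0.10, adjusted p = 3.08e-05). Of the 16 H2A members, 8 rose with siRNA-2 and 6 with siRNA-1, 13 being tested and both copies counted. These make 61.5% and 46.2% of those tested, against 29.9% and 28.6% of all rows higher.

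H2B genes were the most abundant replication-dependent family in CPM. Of 17 members, 10 rose with siRNA-2 and 8 with siRNA-1, 14 being tested. These make 71.4% and 57.1% of those tested, against 29.9% and 28.6% of all rows higher. H2BC12 had 301, 263, 267 and 271 CPM with siRNA-2, 170.3, 198, 206 and 180.2 CPM with siRNA-1 and 113, 99.3, 114 and 108 CPM with scrambled, again without overlap. It rose by 1.35 with siRNA-2 (SE 0.06, adjusted p = 3.17e-12) and by 0.82 with siRNA-1 (SE 0.06, adjusted p = 2.8e-09). The H2BC12 row spans 8566 bases and holds the whole of H4C9 on the other strand. With the reads of H4C9 taken off, H2BC12 still averaged 235 ± 12.2 CPM with siRNA-2, 161 ± 13.4 CPM with siRNA-1 and 89.8 ± 5.45 CPM with scrambled (SD, n = 4 each), log2 ratios to scrambled of 1.39 and 0.84.

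H2BC5 had 60.8, 51.4, 45.7 and 50.8 CPM with siRNA-2, 34.6, 39.2, 42.9 and 35.4 CPM with siRNA-1 and 22.1, 18.1, 20.2 and 21.8 CPM with scrambled. The 3 groups were separate, and H2BC5 rose by 1.35 with siRNA-2 (SE 0.09, adjusted p = 1.31e-08) and by 0.91 with siRNA-1 (SE 0.09, adjusted p = 1.19e-06). For H2BC4 the siRNA-2 libraries held 32.1, 34.1, 29.4 and 31.5 CPM, the siRNA-1 libraries 24.6, 30.3, 25.0 and 23.0 CPM and the scrambled libraries 9.90, 9.53, 11.9 and 11.7 CPM. The siRNA groups overlapped each other but not scrambled, and the increases were 1.57 with siRNA-2 (SE 0.08, adjusted p = 1.45e-11) and 1.27 with siRNA-1 (SE 0.08, adjusted p = 3.67e-10). H2BC21, on chromosome 1, had 78.7, 73.7, 65.2 and 70.2 CPM with siRNA-2, 76.8, 84.5, 86.1 and 76.1 CPM with siRNA-1 and 41.6, 39.6, 38.7 and 40.3 CPM with scrambled. It rose by 0.86 with siRNA-2 (SE 0.05, adjusted p = 1.2e-13) and by 1.03 with siRNA-1 (SE 0.05, adjusted p = 3.93e-15), and was the only replication-dependent member called lower with siRNA-2 than with siRNA-1.

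**Figure D2:**
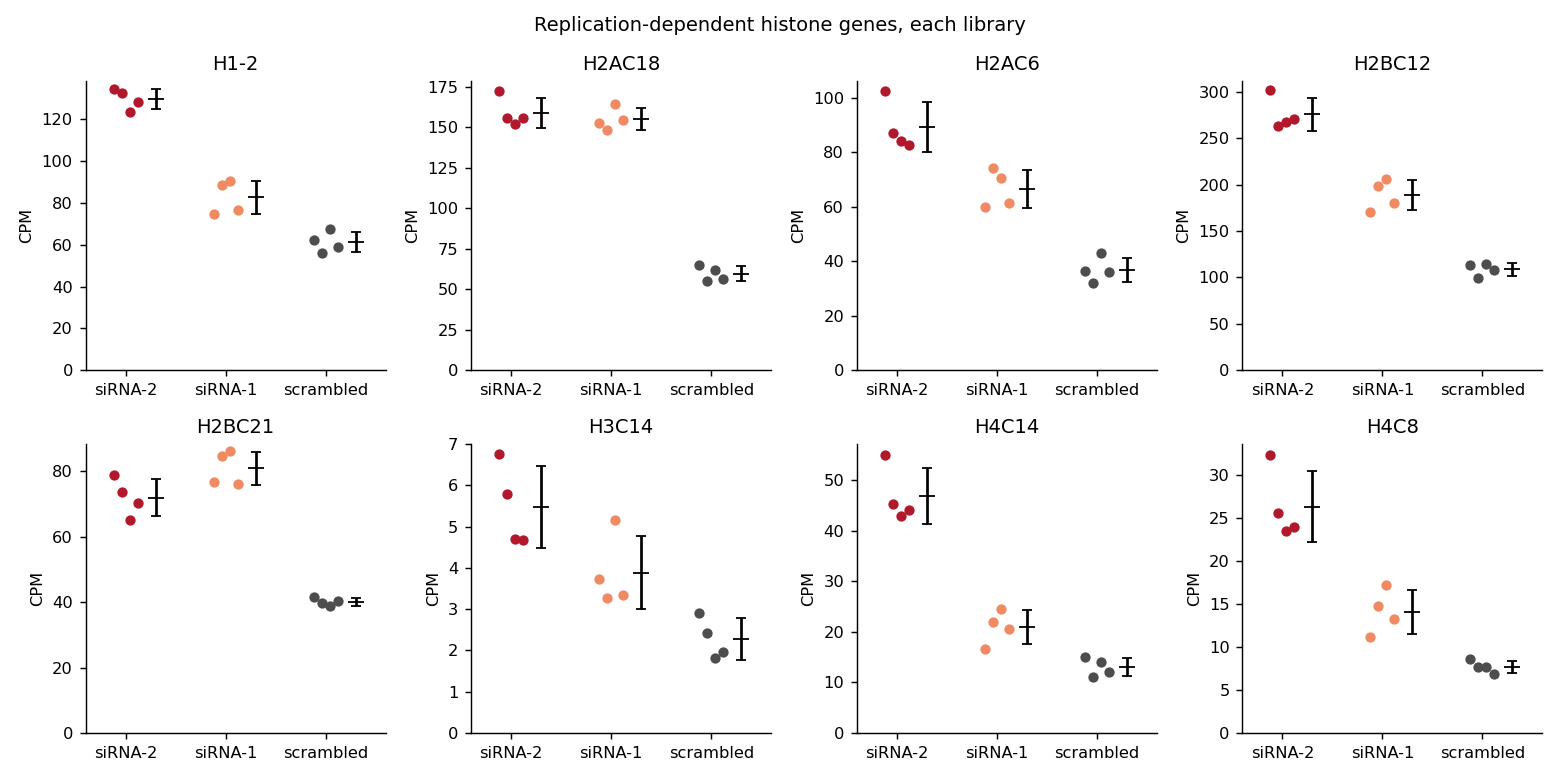
CPM (y axis) of 8 replication-dependent histone genes in each library; points are libraries, the dash and bar beside them the mean and SD of 4. H1-2, H2AC6, H2BC12, H4C14 and H4C8 step down from siRNA-2 to siRNA-1 to scrambled without overlap, whereas H2AC18 and H2BC21 are about as high with siRNA-1 as with siRNA-2.

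H3 genes were counted at lower levels. H3C14 and H3C15, whose coding sequences are identical over 411 bases and whose counts differed by at most 4 reads in any library, are 1 measurement. H3C14 had 6.76, 5.78, 4.71 and 4.66 CPM with siRNA-2, 3.74, 3.27, 5.16 and 3.33 CPM with siRNA-1 and 2.91, 2.42, 1.80 and 1.96 CPM with scrambled. Both siRNA groups lay above scrambled, by 1.28 with siRNA-2 (SE 0.17, adjusted p = 2.71e-06) and 0.79 with siRNA-1 (SE 0.17, adjusted p = 0.000728). H3C6 had 8.21, 7.46, 5.75 and 7.07 CPM with siRNA-2, 4.78, 5.52, 5.16 and 4.89 CPM with siRNA-1 and 4.66, 4.29, 3.22 and 4.29 CPM with scrambled. Its siRNA-1 libraries lay barely above the scrambled ones. H3C6 rose by 0.80 with siRNA-2 (SE 0.11, adjusted p = 9.56e-07) and by 0.33 with siRNA-1 (SE 0.11, adjusted p = 0.0175), and the siRNA-1 call was lost without scrambled replicate 3 (adjusted p = 0.0886) or siRNA-1 replicate 2 (adjusted p = 0.0694). Of 14 H3 members 7 rose with each siRNA, 11 being tested and both copies counted. That is 63.6% of those tested, against 29.9% of all rows higher with siRNA-2 and 28.6% with siRNA-1. The 1 member that fell was H3-2, with 1.92 to 2.49 CPM with siRNA-2, 1.21 to 2.06 CPM with siRNA-1 and 2.21 to 2.71 CPM with scrambled. H3-2 fell by 0.49 with siRNA-1 (SE 0.15, adjusted p = 0.00896) and had a log2 fold change of -0.12 with siRNA-2 (adjusted p = 0.509), and its row overlaps H2BP2 and RP5-998N21.10, which hold more reads than it does.

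H4 genes summed to 117 ± 13.8 CPM with siRNA-2, 57.6 ± 7.86 CPM with siRNA-1 and 34.3 ± 4.17 CPM with scrambled (SD, n = 4 each). This sum counts copies once and leaves out H4C9, whose reads fall in the H2BC12 row and so count among H2B. H4C14 had 55.0, 45.3, 42.9 and 44.1 CPM with siRNA-2, 16.7, 21.9, 24.6 and 20.7 CPM with siRNA-1 and 15.04, 11.1, 14 and 11.97 CPM with scrambled. Every siRNA-2 library lay above every siRNA-1 library, and these above every scrambled one. H4C14 rose by 1.86 with siRNA-2 (SE 0.13, adjusted p = 4.69e-07) and by 0.71 with siRNA-1 (SE 0.14, adjusted p = 0.00129). H4C15, with an identical coding sequence and a longer row of 7898 bases, had 101, 86.3, 77.7 and 79.5 CPM with siRNA-2, 34.9, 42.6, 44.6 and 37.1 CPM with siRNA-1 and 28.6, 20.4, 24.3 and 22.2 CPM with scrambled. The groups were again separate, with increases of 1.86 (SE 0.12, adjusted p = 2.19e-07) and 0.76 (SE 0.12, adjusted p = 0.000342). In every library the reads of H4C14 and of the bases beyond it, described below, together came near those of H4C15. The longer row of H4C14 under its older name rose by 1.81 and 0.69, and the older row of H4C15 by 1.82 and 0.73. H4C14 with the bases beyond it and H4C15 are therefore not separate measurements.

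H4C8, which lies apart from those copies on chromosome 6 from 26285126 to 26285534, had 32.3, 25.5, 23.4 and 23.9 CPM with siRNA-2, 11.1, 14.7, 17.1 and 13.2 CPM with siRNA-1 and 8.55, 7.68, 7.65 and 6.83 CPM with scrambled. It gave 1.79 with siRNA-2 (SE 0.14, adjusted p = 5.5e-07) and 0.89 with siRNA-1 (SE 0.14, adjusted p = 0.000288). H4C9, inside the H2BC12 row, had 49.2, 39.7, 39.1 and 34.6 CPM with siRNA-2, 26.8, 30.1, 32.4 and 27.3 CPM with siRNA-1 and 21.1, 15.9, 17.3 and 18.2 CPM with scrambled. Its increases were 1.18 with siRNA-2 (SE 0.11, adjusted p = 2.12e-06) and 0.71 with siRNA-1 (SE 0.11, adjusted p = 0.000215). These 4, with H4C14 and H4C15 not separate measurements, were the H4 members that rose, with each siRNA, of 14 members and 10 tested. They make 40% of those tested, against 29.9% of all rows higher with siRNA-2 and 28.6% with siRNA-1.

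Per kilobase of row, the highest replication-dependent levels were those of H2AC18, with 298 CPM per kilobase with siRNA-2, 290.5 with siRNA-1 and 112 with scrambled. H1-2 followed with 177, 113 and 83.7, H2AC6 with 171.8, 128 and 71.0, H4C14 with 118, 52.9 and 32.9, and H4C9 with 102, 73.4 and 45.7 CPM per kilobase in the same order of groups. This order is that of the siRNA-2 means; with siRNA-1 H2AC6 stood above H1-2, and with siRNA-1 and scrambled H4C9 stood above H4C14. Rows such as those of H2BC12, H2BC4 and H2BC5 reach over long spans beyond the coding part, so their level per kilobase is not comparable with that of the short rows.

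The direct comparison of siRNA-2 with siRNA-1 sets side by side the siRNAs that have the same named target. With siRNA-2, 17 of the 53 tested replication-dependent members were higher than with siRNA-1 and 1 was lower, against 32.5% of all rows called, 15.7% higher and 16.8% lower. The median log2 difference was 0.40 over the members and 0.00 over all rows, and 48 of the 53 had a difference above 0. All 4 siRNA-2 libraries lay above all 4 siRNA-1 libraries for 17 members, against 16.3% of rows. The count of higher members fell to 12 without siRNA-1 replicate 1 or siRNA-2 replicate 2.

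Of the members called higher with siRNA-2 than with siRNA-1, the H4 copies had the largest differences, H4C14 by 1.15 (SE 0.13, adjusted p = 5.59e-05) and H4C15 by 1.10 (SE 0.12, adjusted p = 4e-05). These copies are not separate measurements. H4C8 was next at 0.89 (SE 0.13, adjusted p = 0.000344). H1-2 was higher with siRNA-2 by 0.64 (SE 0.06, adjusted p = 3.58e-07), H2BC12 by 0.54 (SE 0.06, adjusted p = 1.82e-06), H2BC5 by 0.45 (SE 0.09, adjusted p = 0.00127) and H2AC6 by 0.42 (SE 0.10, adjusted p = 0.00872). H2BC4 differed by 0.30 (SE 0.08, adjusted p = 0.00634), or 0.25 without the 2 libraries of large ribosomal share, where it did not pass (adjusted p = 0.0579). H3C6 was higher with siRNA-2 by 0.47 (SE 0.11, adjusted p = 0.00153) and H4C9 by 0.47 (SE 0.11, adjusted p = 0.00556). The difference of H3C14, 0.49 (SE 0.16, adjusted p = 0.026), was lost when any of 5 libraries was left out. H2AC18 did not pass (0.03, SE 0.05, adjusted p = 0.721), and H2BC21 was lower with siRNA-2 by a log2 difference of -0.18 (SE 0.05, adjusted p = 0.00471), although its libraries overlapped.

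Some rows reach past the short histone mRNA, and for several members the table also has a longer row under an older name. These rows let the reads that lie beyond the gene's own row be measured. The longer row of H2AC6 has 15950 bases, of which 519 are H2AC6, 15166 lie downstream and the rest lie upstream, where they overlap the end of the H2BC4 row; reads from that overlap were not separated. Outside H2AC6 the longer row held 58.8, 50.3, 45.1 and 48.4 CPM with siRNA-2, 35.2, 44.8, 46.0 and 41.6 CPM with siRNA-1 and 21.9, 20.6, 25.6 and 22.6 CPM with scrambled. The mean there was 2.23 times that of scrambled with siRNA-2 and 1.85 times with siRNA-1, next to 2.42 and 1.80 times in the H2AC6 row itself. Beyond H4C14, in 6715 further bases, the libraries held 40.4, 36.1, 31.5 and 31.9 CPM with siRNA-2, 15.8, 18.1, 16.4 and 15.3 CPM with siRNA-1 and 11.8, 8.45, 9.22 and 9.15 CPM with scrambled. The ratios to scrambled were 3.63 and 1.70 there and 3.59 and 1.61 in the H4C14 row. In both cases the reads beyond the gene row differed from scrambled by about the same ratio as those inside it. The 3 groups were separate beyond H4C14, while beyond H2AC6 the siRNA-2 and siRNA-1 libraries overlapped and both lay above scrambled.

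The 1461 bases beyond H2AC11 gave 11, 8.60, 7.87 and 7.42 CPM with siRNA-2, 6.06, 7.54, 8.62 and 7.05 CPM with siRNA-1 and 4.03, 4.58, 4.18 and 4.23 CPM with scrambled. Scrambled replicate 1 was not high there, though it was in the H2AC11 row, where the libraries held 13.0, 11.5, 12.01 and 11.4 CPM with siRNA-2, 7.79, 9.41, 10.5 and 7.41 CPM with siRNA-1 and 11.5, 5.58, 6.07 and 4.88 CPM with scrambled. Ratios to scrambled were 2.05 and 1.72 beyond the row and 1.71 and 1.251 inside it, for siRNA-2 and siRNA-1. The longer row of H2BC4 adds 1884 bases downstream and a short stretch upstream, which together gave 1.46 ± 0.286 CPM with siRNA-2, 1.45 ± 0.113 CPM with siRNA-1 and 0.969 ± 0.121 CPM with scrambled (SD, n = 4 each), ratios of 1.503 and 1.499, where the row itself had 2.95 and 2.39. Beyond H1-2 there was little, 0.645 ± 0.174, 0.479 ± 0.216 and 0.428 ± 0.115 CPM in the same order (SD, n = 4 each). Of the tested members, 18 have an annotated mRNA that runs more than 100 bases past the stem-loop, of which 15 rose with siRNA-2 and 13 with siRNA-1, with medians of 1.13 and 0.71. Of the other 35, 16 and 13 rose, with medians of 0.86 and 0.60. The 35 are not all genes with a short end. They include members with no annotated bases after the coding part, such as H1-2 and H2BC12. They also include H3C6, with an annotated 3' end of 1908 bases in which no stem-loop was found. Of the 18, 12 averaged at least 2 CPM, against 9 of the 35, so the sets differ in abundance as well. Over all rows, 29.9% were higher with siRNA-2 and 28.6% with siRNA-1. The split by annotated end was chosen with values known and was not tested.

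**Figure D3:**
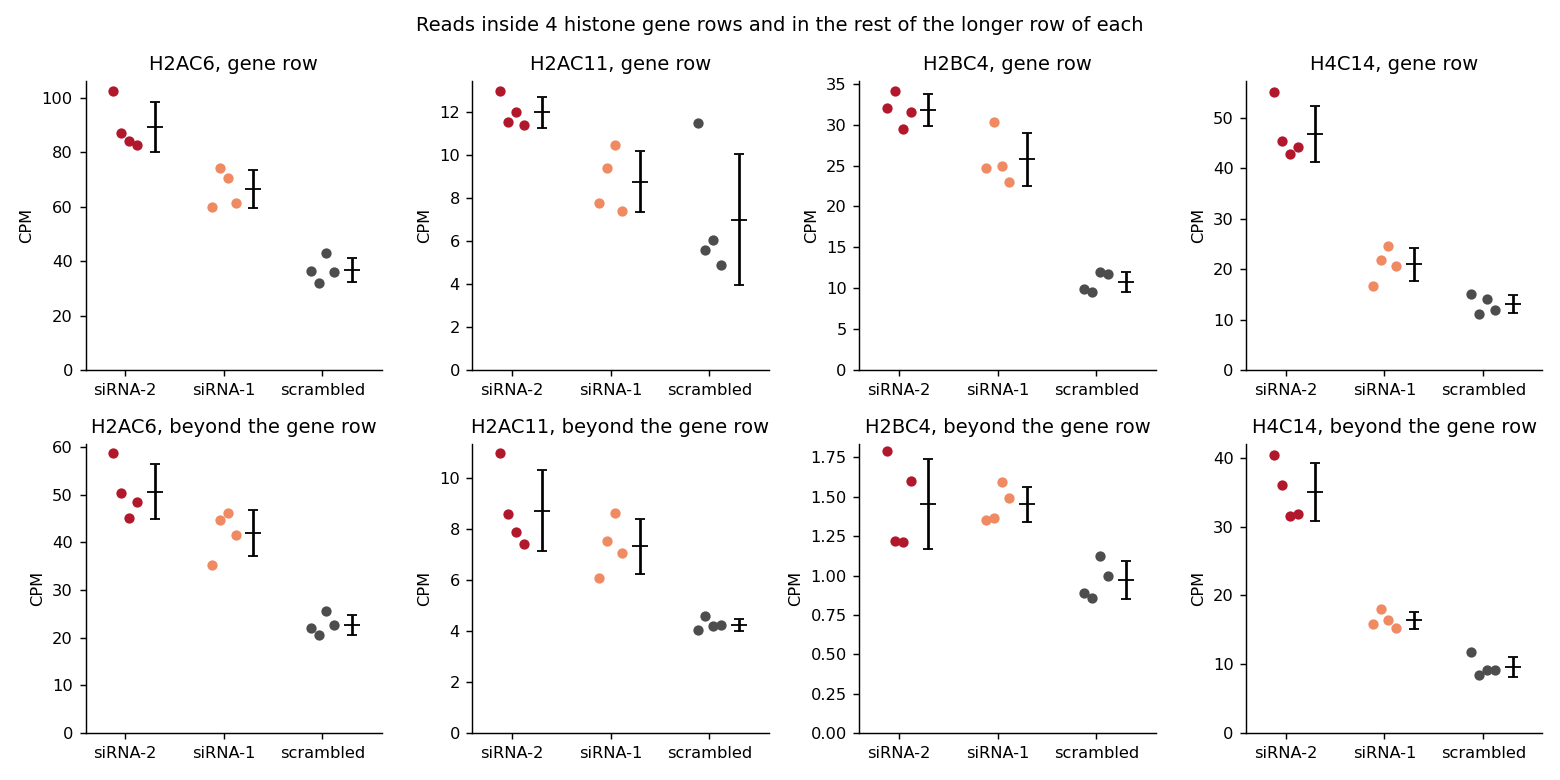
CPM (y axis) in each library inside the rows of H2AC6, H2AC11, H2BC4 and H4C14 (top) and in the rest of the longer row that holds each of them (bottom); points are libraries, the dash and bar the mean and SD of 4. The reads beyond H4C14 step down from siRNA-2 to siRNA-1 to scrambled as those inside do, and beyond H2AC6 both siRNA groups lie above scrambled but overlap each other.

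Of the 8 variant histone genes, all tested, 2 rose and 3 fell with siRNA-2, where 29.9% of all rows were higher and 26.1% lower. With siRNA-1, 2 rose and 4 fell, where 28.6% of all rows were higher and 24.8% lower. Their summed level was 2242, 2146, 2146 and 2196 CPM with siRNA-2, 1956, 1980.0, 2032 and 2047 CPM with siRNA-1 and 2190.0, 2114, 2223 and 2151 CPM with scrambled, so the siRNA-2 sum overlapped the scrambled one and the siRNA-1 sum lay below both.

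The genes that encode H2A.Z, a variant found at promoters and enhancers, fell with both siRNAs. H2AZ2 had 146, 150.3, 150.4 and 155 CPM with siRNA-2, 168, 162, 149.9 and 161 CPM with siRNA-1 and 285, 293, 289 and 305 CPM with scrambled. Every siRNA library lay far below every scrambled one, and H2AZ2 fell by 0.95 with siRNA-2 (SE 0.04, adjusted p = 2.77e-16) and by 0.85 with siRNA-1 (SE 0.04, adjusted p = 2.29e-15). H2AZ1 had 245, 245, 265 and 253 CPM with siRNA-2, 217, 224, 216 and 220.0 CPM with siRNA-1 and 324, 314, 341 and 331 CPM with scrambled. H2AZ1 fell by 0.37 with siRNA-2 (SE 0.04, adjusted p = 8.19e-09) and by 0.56 with siRNA-1 (SE 0.04, adjusted p = 4.75e-12), with the 3 groups apart. Its row overlaps LOC256880 on the other strand, which holds as many reads, so reads of these genes cannot be told apart.

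Of the genes for H3.3, the variant laid down outside replication, H3-3A fell and H3-3B rose slightly. H3-3A had 105, 116, 120.3 and 120 CPM with siRNA-2, 134, 120, 124 and 129 CPM with siRNA-1 and 168, 167, 168 and 169.8 CPM with scrambled. It fell by 0.53 with siRNA-2 (SE 0.05, adjusted p = 3.86e-10) and by 0.39 with siRNA-1 (SE 0.05, adjusted p = 1.04e-07), with every siRNA library below every scrambled one. H3-3B had 1077, 1002, 1005 and 1032 CPM with siRNA-2, 972, 1021, 1009 and 999 CPM with siRNA-1 and 937, 885, 942 and 911 CPM with scrambled. The increases were small, 0.18 with siRNA-2 (SE 0.04, adjusted p = 0.00014) and 0.14 with siRNA-1 (SE 0.04, adjusted p = 0.0013), though no siRNA library reached down to the scrambled ones. H3-5, a further H3.3-like gene, had 4.18 to 4.71 CPM with siRNA-2, 4.49 to 5.39 CPM with siRNA-1 and 3.95 to 5.57 CPM with scrambled and passed in no comparison.

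H2AX, whose product is phosphorylated around DNA breaks, separated the siRNAs. It had 117, 109.8, 108 and 109 CPM with siRNA-2, 75.4, 71.0, 77.2 and 84.0 CPM with siRNA-1 and 117, 116, 115 and 109.6 CPM with scrambled. The siRNA-1 libraries lay below all the others, while siRNA-2 and scrambled overlapped. H2AX fell by 0.55 with siRNA-1 (SE 0.05, adjusted p = 3.45e-10), had a log2 fold change of -0.03 with siRNA-2 (SE 0.05, adjusted p = 0.581), and was higher with siRNA-2 than with siRNA-1 by 0.52 (SE 0.05, adjusted p = 4.9e-09). H2AX was the variant gene in which the stem-loop was found.

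H1-10, a replication-independent linker histone gene, had 547, 518, 490.0 and 519 CPM with siRNA-2, 385, 375, 450.5 and 447 CPM with siRNA-1 and 352, 332, 362 and 316 CPM with scrambled. The groups were separate, and H1-10 rose by 0.62 with siRNA-2 (SE 0.07, adjusted p = 1.7e-06) and by 0.31 with siRNA-1 (SE 0.07, adjusted p = 0.00138).

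Between the siRNAs, 3 of the 8 variant genes were higher with siRNA-2 and 1 was lower, against 15.7% and 16.8% of all rows. Besides H2AX these were H1-10 (0.31, SE 0.07, adjusted p = 0.00231) and H2AZ1 (0.19, SE 0.04, adjusted p = 0.00031), whose siRNA-2 libraries all lay above the siRNA-1 libraries. H3-3A was lower with siRNA-2, with a log2 difference of -0.15 (SE 0.05, adjusted p = 0.0159) and touching groups, and did not pass without siRNA-1 replicate 1 (adjusted p = 0.0687), siRNA-1 replicate 4 (adjusted p = 0.0584) or siRNA-2 replicate 1 (adjusted p = 0.11). H2AZ2 had a difference of -0.10 (SE 0.04, adjusted p = 0.0552), which passed without siRNA-1 replicate 3 (adjusted p = 0.016).

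**Figure D4:**
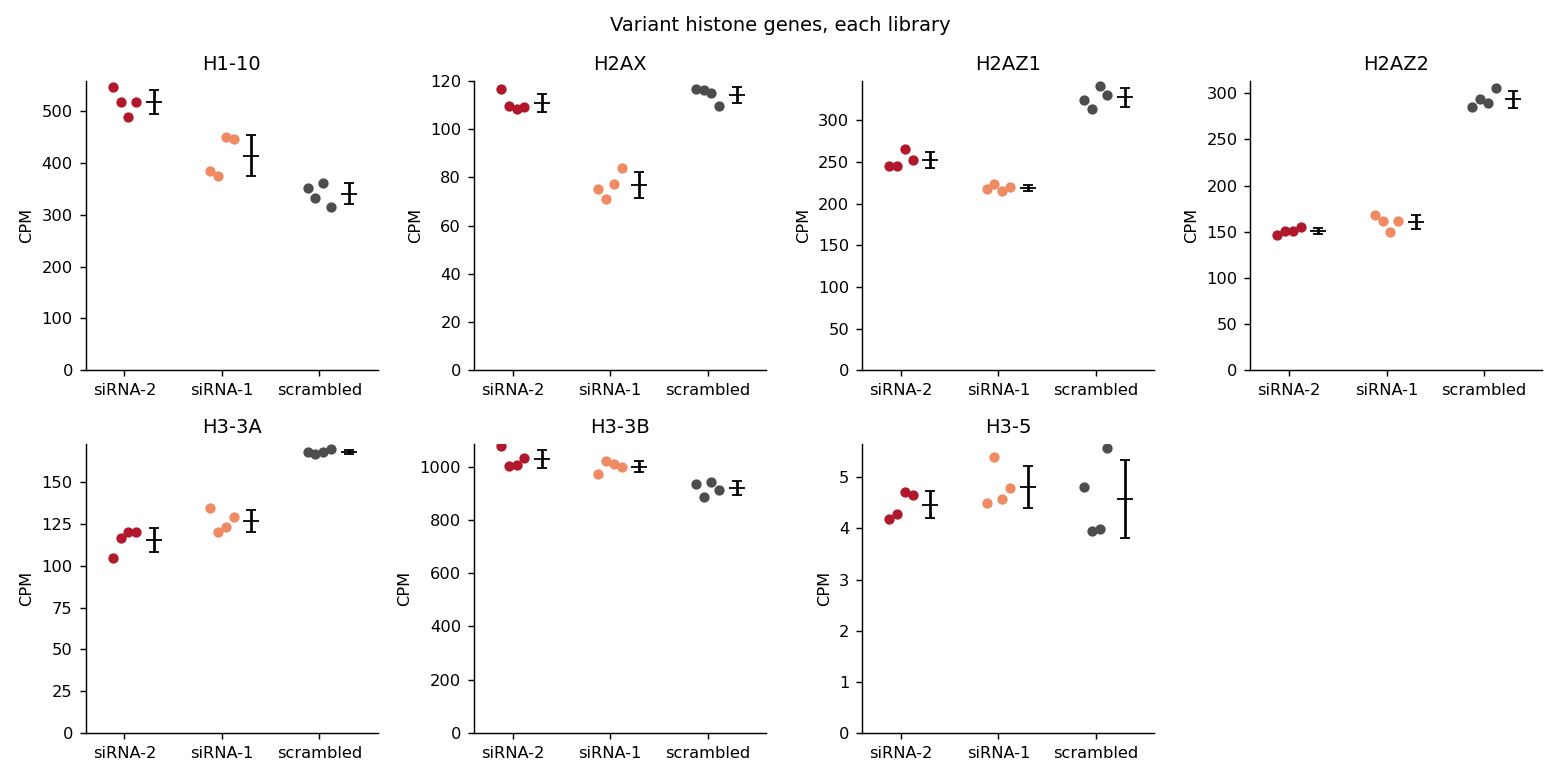
CPM (y axis) of 7 variant histone genes in each library; points are libraries, the dash and bar the mean and SD of 4. H2AZ1, H2AZ2 and H3-3A are lower with both siRNAs than with scrambled, H1-10 is higher with both, and H2AX is low with siRNA-1 only, at 71.0 to 84.0 CPM.

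Part of the chromosome 6 cluster could not be measured gene by gene. From H2BC1 to H2BC3, over 317 kb, the rows of H2BC1, SLC17A4, SLC17A3, SLC17A2, H1-1 and H2BC3 held counts that differed by at most 3 reads in any library. H1-1 had 13, 16, 0 and 21 reads with siRNA-2, 17, 18, 8 and 0 with siRNA-1 and 0, 13, 12 and 0 with scrambled, and the distant solute carrier gene rows had nearly the same. A second stretch of 63 kb runs from H3C3 to H1-6. H3C3 had 27, 159, 103 and 148 reads with siRNA-2, 72, 103, 83 and 15 with siRNA-1 and 10, 18, 20 and 7 with scrambled, and H1-6, a testis linker histone gene, had 20, 139, 94 and 121, 66, 104, 76 and 3, and 1, 13, 14 and 3 reads in the same order. H3C3 minus H1-6 lay between -1 and 27 reads in every library. Rows here therefore hold reads in common, and the calls that H3C3 and H1-6 rose with both siRNAs rest on them: for H1-6, 3.46 with siRNA-2 (SE 0.97, adjusted p = 0.0128) and 3.03 with siRNA-1 (SE 1.00, adjusted p = 0.0282). With 1 row kept for each set of copies and 11 member rows of both stretches left out, H1-2 being kept, 27 replication-dependent members rose with siRNA-2 and 21 with siRNA-1. The rows left out also lower the number tested, so these counts are not out of the 53 tested members given above. Over all rows, 29.9% were higher with siRNA-2 and 28.6% with siRNA-1.

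**Figure D5:**
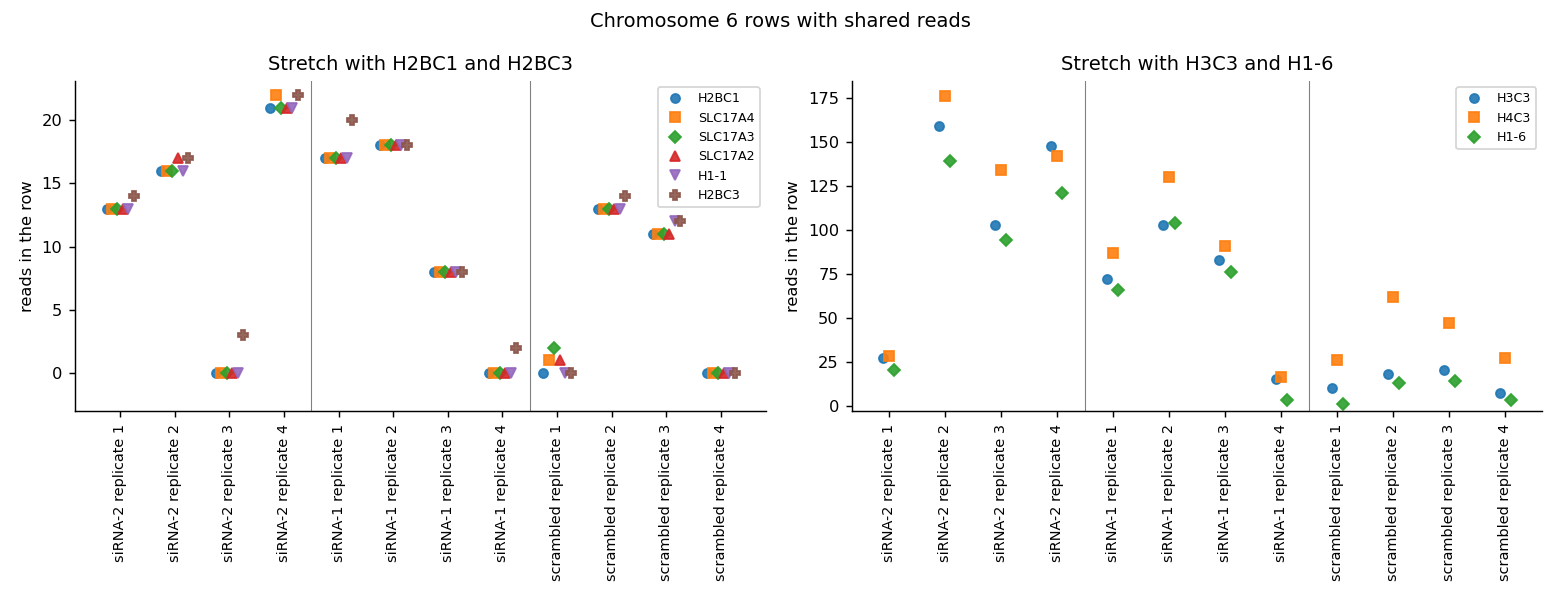
Reads (y axis) in each library for rows of 2 stretches of chromosome 6, with vertical lines between the groups; markers are rows, shifted sideways for legibility. Within each library the 6 rows on the left have nearly the same count although they span 317 kb, and H3C3, H4C3 and H1-6 on the right move together. Scrambled replicates 1 and 4 and siRNA-1 replicate 4 are low in both.

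Of the 4 testis or oocyte genes, H1-6 is described above, H1-8 did not pass with siRNA-2 (-0.76, SE 0.54, adjusted p = 0.237) or siRNA-1 (-0.43, SE 0.52, adjusted p = 0.518), and H1-7 had 1 read in all. The row named H3-4 spans nearly the whole of chromosome 1 and holds 48923583 reads, so it measures no gene, and a row under the older name of H3-4 held 0 to 3 reads per library. The 13 replication-dependent members that were not tested held 0 to 96 reads over the 12 libraries, H2AC1 and H4C7 none.

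Promoters were searched for 3 words known from histone genes. RefSeq windows (GRCh38.p14) from 250 bases before to 50 after the start were matched for 70 members by symbol. ATTTGCAT, the octamer bound by OCT1, was present on either strand in 11 of 15 H2A genes (73.3%) and 14 of 17 H2B genes (82.4%), but in 1 of 11 H3, 0 of 5 H1 and 0 of 12 H4 genes, against 2.19% of 27305 genes in the table. CCAAT was present in every matched replication-dependent H1, H2A, H2B and H3 gene and in 3 of 12 H4 genes, against 39.7% of all genes. TATAAA was present in 42 of 60 replication-dependent genes (70.0%), against 14% of all genes. Matches of different words never overlapped in these windows. The windows of H3C4 and H2AC7 each share 278 bases with that of H2BC7. An H3 gene and an H2A gene are thus counted here from largely the same bases. A match is a description of the sequence and not a binding site.

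The windows of 3 genes show differing sets of these words, 5' to 3' on each gene's own strand, with the words and their reverse complements in capitals. H2AC6 (chr6:26123922-26124221, plus strand) shares 255 bases of its window with H2BC4 on the other strand, H1-2 (chr6:26056421-26056720, minus strand) holds CCAAT but neither of the other words, and H4C14 (chr1:149832407-149832706, plus strand) holds none of the words.

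H2AC6: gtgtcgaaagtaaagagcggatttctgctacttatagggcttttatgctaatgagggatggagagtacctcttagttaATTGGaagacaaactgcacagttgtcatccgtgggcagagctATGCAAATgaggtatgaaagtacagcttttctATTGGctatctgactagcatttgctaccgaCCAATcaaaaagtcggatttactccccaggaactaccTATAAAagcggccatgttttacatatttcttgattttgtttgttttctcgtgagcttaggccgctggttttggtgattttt

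H1-2: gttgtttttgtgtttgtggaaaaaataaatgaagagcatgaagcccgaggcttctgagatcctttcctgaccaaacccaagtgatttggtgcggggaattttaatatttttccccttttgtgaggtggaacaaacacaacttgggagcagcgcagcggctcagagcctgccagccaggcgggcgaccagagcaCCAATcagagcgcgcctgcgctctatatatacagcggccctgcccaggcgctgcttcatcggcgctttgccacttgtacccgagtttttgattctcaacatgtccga

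H4C14: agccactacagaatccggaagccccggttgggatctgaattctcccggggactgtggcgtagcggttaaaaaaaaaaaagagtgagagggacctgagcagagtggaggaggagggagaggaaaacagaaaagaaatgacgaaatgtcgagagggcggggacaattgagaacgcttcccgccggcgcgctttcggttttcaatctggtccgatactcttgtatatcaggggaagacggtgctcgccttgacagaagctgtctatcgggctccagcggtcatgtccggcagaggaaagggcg

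Of 11 member pairs whose windows overlap on opposite strands, 10 join an H2A and an H2B gene. Of these 10, 7 had both genes tested. In the H2AC6 and H2BC4 pair both rose, by 1.28 and 1.57 with siRNA-2 and by 0.87 and 1.27 with siRNA-1. H2AC20 and H2BC21 rose by 1.09 and 0.86 with siRNA-2 and by 0.56 and 1.03 with siRNA-1, although H2BC21 had 71.9 CPM with siRNA-2 where H2AC20 had 1.80 CPM. H2AC7 and H2BC7 also both rose with each siRNA, H2AC7 by 2.54 and 2.14 and H2BC7 by 1.61 and 0.75 with siRNA-2 and siRNA-1. Both had few reads, averaging 0.144 CPM for H2AC7 and 0.345 CPM for H2BC7 with scrambled. H2AC7 had 2, 11, 8 and 6 reads there, and its row lies inside that of H3C4 on the same strand. H2AC11 and H2BC11 rose by 0.79 and 1.20 with siRNA-2 and did not pass with siRNA-1. H2AC8 rose by 1.05 with siRNA-2 and 0.85 with siRNA-1, while its partner H2BC8 rose by 0.69 with siRNA-2 (adjusted p = 0.0368) and had 0.21 with siRNA-1 (adjusted p = 0.575). In the remaining pairs the H2B gene rose and the H2A gene did not pass. H2BC15 rose by 0.71 with siRNA-2 and 0.48 with siRNA-1, where H2AC15 had 0.11 (adjusted p = 0.81) and -0.02 (adjusted p = 0.967). H2BC17 rose by 1.14 and 0.74, where H2AC17 had 0.41 (adjusted p = 0.154) and 0.19 (adjusted p = 0.536).

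Of 16 genes listed for the processing and decay of histone mRNA, 14 were tested. With siRNA-2, 4 rose and 4 fell, near the 29.9% of all rows higher and 26.1% lower, and with siRNA-1, 3 rose and 3 fell, under the 28.6% higher and 24.8% lower. LSM11, a subunit of the U7 particle that cuts histone pre-mRNA, had 9.98, 11.9, 11.5 and 12.1 CPM with siRNA-2, 14.4, 13.3, 13.6 and 13.2 CPM with siRNA-1 and 21.9, 22.5, 22.2 and 23.2 CPM with scrambled. It fell by 0.97 with siRNA-2 (SE 0.06, adjusted p = 8.58e-13) and by 0.70 with siRNA-1 (SE 0.06, adjusted p = 3.62e-10), with the 3 groups apart. TUT7, which adds uridines to histone mRNA before its decay, fell to 33.5 ± 1.31 CPM with siRNA-2 and 33.5 ± 1.97 CPM with siRNA-1, against 44.3 ± 2.62 CPM with scrambled (SD, n = 4 each). SYMPK, the scaffold of the cleavage complex, rose by 0.32 with siRNA-2 (SE 0.03, adjusted p = 1.51e-08) and 0.34 with siRNA-1 (SE 0.03, adjusted p = 5.92e-09). SLBP, which binds the stem-loop, averaged 74.3 CPM with siRNA-2, 71.8 CPM with siRNA-1 and 70.2 CPM with scrambled, a change of 0.09 with siRNA-2 (adjusted p = 0.0386) and 0.05 with siRNA-1 (adjusted p = 0.256).

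Of 12 listed regulators of histone gene transcription, 11 were tested; 2 rose and 6 fell with siRNA-2, against 26.1% of all rows lower, and 7 fell with siRNA-1, against 24.8% lower, while the other 4 did not pass. NPAT, the activator that gathers at histone gene clusters, averaged 13.0 CPM with siRNA-2, 13.7 CPM with siRNA-1 and 13.2 CPM with scrambled and passed in neither comparison. CDK2, the kinase that activates NPAT, had 96.2, 99.1, 96.9 and 95.9 CPM with siRNA-2, 68.5, 70.1, 68.2 and 67.8 CPM with siRNA-1 and 87.3, 82.5, 82.0 and 76.7 CPM with scrambled. It rose by 0.25 with siRNA-2 (SE 0.04, adjusted p = 1.73e-06) and fell by 0.24 with siRNA-1 (SE 0.04, adjusted p = 5.74e-06), without overlap. CCNA2, a cyclin of S phase and G2 whose row shares reads with EXOSC9, fell by 0.30 with siRNA-2 (SE 0.04, adjusted p = 7.42e-07) and by 0.31 with siRNA-1 (SE 0.04, adjusted p = 5.13e-07). YY1 fell by 0.21 and 0.18, in a row that overlaps SLC25A29.

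Of 20 S phase genes, all tested, 2 rose and 13 fell with siRNA-2, against 26.1% of all rows lower, and 1 rose and 14 fell with siRNA-1, against 24.8% lower, with a median log2 fold change of -0.21 with each. TYMS, thymidylate synthase, whose row overlaps ENOSF1, fell by 0.45 and 0.73, and RRM1, a subunit of ribonucleotide reductase, by 0.54 and 0.44, with siRNA-2 and siRNA-1. PCNA, the sliding clamp of replication, averaged 196 CPM with siRNA-2, 178 CPM with siRNA-1 and 230.5 CPM with scrambled and fell by 0.22 and 0.35.

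Of 22 listed histone chaperones, 17 were tested; 5 were higher and 6 lower with siRNA-2, and 6 were higher and 7 lower with siRNA-1. The shares over all rows were 29.9% higher and 26.1% lower with siRNA-2 and 28.6% and 24.8% with siRNA-1. NAP1L1, a chaperone of H2A and H2B, had 397, 410.3, 402 and 401 CPM with siRNA-2, 509, 518, 502 and 482 CPM with siRNA-1 and 584, 604, 616 and 613 CPM with scrambled, and fell by 0.57 with siRNA-2 (SE 0.03, adjusted p = 2.99e-13) and 0.25 with siRNA-1 (SE 0.03, adjusted p = 1.13e-06). HIRA, which deposits H3.3, rose by 0.33 with siRNA-2 (SE 0.04, adjusted p = 6.65e-07) and 0.41 with siRNA-1 (SE 0.04, adjusted p = 2.25e-08). NPM1, an abundant nucleolar chaperone, fell by 0.30 and 0.24.

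Among 10 further histone and histone variant genes outside the naming rule, 5 were tested. Of these, 2 fell with siRNA-2, against 26.1% of all rows lower, and 3 fell with siRNA-1, against 24.8% lower. The others did not pass. MACROH2A1, a variant with a large extra domain, had 269.6, 263, 266 and 264 CPM with siRNA-2, 271, 263, 265 and 267 CPM with siRNA-1 and 338, 347, 337 and 326 CPM with scrambled. It fell by 0.33 with siRNA-2 (SE 0.03, adjusted p = 5.32e-09) and by 0.32 with siRNA-1 (SE 0.03, adjusted p = 1.37e-08), though its row shares reads with PITX1-AS1. CENPA, the centromeric H3, fell by 0.20 with siRNA-2 (SE 0.06, adjusted p = 0.00364) and by 0.36 with siRNA-1 (SE 0.06, adjusted p = 5.75e-06). MACROH2A2, whose row overlaps the more abundant AIFM2, fell by 0.25 with siRNA-1 (SE 0.06, adjusted p = 0.00136) and had -0.12 with siRNA-2 (adjusted p = 0.104).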

How the data were processed

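The authors deposited 1 table of raw whole-number counts of reads per annotated interval for the 12 libraries, and the submitters' processing notes name Salmon and the build hg38. How the interval counts themselves were made is not stated in those notes. Intervals cover whole gene spans, and overlapping rows were found to hold the same reads whatever their strand. Of 48769 gene rows, 45134 were kept: rows with no usable name, very long rows, older names, ribosomal RNA and rows repeating another's counts were left out, and the row named H3-4 was left out of library sizes. No column of the table was left unused.

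Counts were tested with edgeR 4.0.16 (quasi-likelihood, robust, TMM scaling, filterByExpr with a minimum count of 10) with 1 coefficient per group over the 12 libraries, giving 24943 rows. Adjusted p-values are Benjamini-Hochberg over these rows, and the threshold was 0.05. CPM uses the TMM-scaled library sizes. DESeq2 1.42.0, other filters, left-out libraries and a replicate block were alternatives. On simulated data for siRNA-1 against scrambled (24615 rows), 27 of 50 genes changed 1.25-fold, 45 of 50 changed 1.5-fold and 50 of 50 changed 2-fold were recovered, with 8 of 24415 unchanged rows called. Changes were planted only in rows averaging at least 2 CPM, so these rates do not cover the 32 tested replication-dependent members under that level. Far fewer rows were changed in the simulation than were called in the real data.

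The members and lists were chosen with earlier results of these data known. Genes named are the tested variants, the 3 most abundant tested members of each replication-dependent family, the 4 called members with the smallest p in each direction and up to 3 genes of each other list. Further genes, among them H3-2, H4C8, H2AC11, H2AC20, H2BC8, H3C3, SLBP, NPAT and PCNA, were named after their values were seen. Promoter sequences are from RefSeq and transcript ends from GENCODE, matched by symbol. Kept counts per library, 42774768 to 52942606, set the precision. The results of 1 variant gene and 1 S phase gene are counted in the totals but not reported here.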

Additional observations from a re-analysis of the deposited data

Results flagged for a closer look

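In 6 of 180 groups of 4 libraries, 1 library stood apart from the other 3 by Dixon's criterion, which chance alone meets in about 1 of 20 groups. H2AC7 had 1.26 CPM in siRNA-2 replicate 1, against 0.699 to 0.738 CPM in the other siRNA-2 libraries. H3C4, whose row holds H2AC7, had 3.41 CPM in the same library, against 2.35 to 2.48 CPM. H3C10 had 3.72 CPM in siRNA-1 replicate 3, the library with the largest ribosomal share, against 2.55 to 2.63 CPM. In scrambled replicate 1, H2BC11 had 12.5 CPM, against 5.03 to 6.19 CPM in the other scrambled libraries, and H2AC14 had 0.66 CPM, against 0.469 to 0.474 CPM. H4C5 had 0.107 CPM in scrambled replicate 4, against 0.307 to 0.345 CPM.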

How the results depend on the processing

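The number of replication-dependent members higher ranged from 25 to 31 with siRNA-2 over the alternatives that kept all libraries and from 27 to 32 with 1 library left out. With siRNA-1 the leave-one-out range was 20 to 30, and for siRNA-2 over siRNA-1 it was 12 to 20. The count lower with siRNA-1 was 1 throughout except 0 with the rows of older names. The variant count lower with siRNA-2 than with siRNA-1 ranged from 0 to 2 with 1 library left out, and was 2 without both libraries of large ribosomal share, with all gene rows and with rows of older names; the cause was not tested.

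Signs turned only for differences that never passed. H1-4 with siRNA-1 ranged from -0.2055 to 0.6277 with 1 library left out and was -0.2049 without both libraries of large ribosomal share. H3-5 with siRNA-2 was 0.0111 with ribosomal share as a covariate, -0.0859 to 0.0874 with 1 library left out and 0.0012 without both. Between the siRNAs, and with 1 library left out, H1-4 ranged from -0.3688 to 0.4647, H2AC18 from -0.0062 to 0.0548 and H2AC19 from -0.0055 to 0.0556. Without both libraries, H1-4 was 0.2819.

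Same-numbered libraries did not deviate together (correlations from -0.12 to 0.10), so no shared effect of the number was seen. Whether same-numbered samples were prepared together cannot be told from this. With a replicate block, 31, 25 and 18 replication-dependent members were higher in the 3 comparisons, and H1-4 between the siRNAs was 0.0266. Choosing the longest row of a symbol gave no other value, since each symbol had 1 row.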
